A study of Homo sapiens with 12 samples.

Results

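The genes described here are 37 genes of the actin cytoskeleton and the contractile apparatus, measured in SJSA-1 cells in which RUNX2 was knocked down. They were chosen by name, from knowledge of their roles, but with earlier results of these data known. Each was found in the tables by the Ensembl identifier of its symbol, so 37 of 59248 rows were used. By role, 14 were muscle-type genes, 3 were single genes that give both muscle and non-muscle isoforms, 16 were ubiquitous genes and 4 were regulators of the set. SJSA-1 is a long-established line of osteosarcoma cells. The sh1 group held 6 libraries of SJSA-1 cells carrying the first of the shRNAs against RUNX2, a transcription factor of bone formation. The shNC group held 6 libraries of SJSA-1 cells carrying a scramble shRNA. Both groups were infected with a lentivirus that also expresses EGFP and a puromycin resistance gene, and both were grown in puromycin until all cells were green. A single shRNA against RUNX2 was thus set against a single control sequence, and the labels do not say whether the libraries of a group came from separate cultures, so the p-values cover only the variation among these libraries and part of it may be technical.

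Actin filaments and myosin II motors give cells their tension. Smooth muscle, heart and skeletal muscle carry their own versions of actin, myosin light and heavy chain, tropomyosin, calponin and transgelin, beside close relatives that nearly every cell makes. Many of these genes are switched by serum response factor (SRF), which binds a DNA element called the CArG box together with the cofactors myocardin (MYOCD), MRTFA and MRTFB. MRTFs are held by free actin monomers and reach the nucleus when actin is built into filaments.

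The CArG box is the DNA element that SRF binds, so the stretches that hold one upstream of the start of a member are shown first, for the 7 members that were also tested for expression. They were read 5′ to 3′ on the strand of the gene from RefSeq promoter windows on GRCh38.p14, which run from 250 bases before to 50 bases after a start. The box is in capitals. The stretches lie at chr3:123620608-123620667 on the minus strand for MYLK, chr6:43171214-43171268 on the plus strand for SRF, chr17:81512859-81512918 on the minus strand for ACTG1, chr19:1026494-1026553 on the plus strand for CNN2, chr19:16067340-16067399 on the plus strand for TPM4, chrX:154374694-154374753 on the minus strand for FLNA and chr14:68977703-68977762 on the minus strand for ACTN1.
MYLK: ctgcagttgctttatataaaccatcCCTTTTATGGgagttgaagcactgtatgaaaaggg
SRF: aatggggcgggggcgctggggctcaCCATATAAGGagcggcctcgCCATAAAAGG
ACTG1: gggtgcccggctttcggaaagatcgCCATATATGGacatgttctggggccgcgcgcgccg
CNN2: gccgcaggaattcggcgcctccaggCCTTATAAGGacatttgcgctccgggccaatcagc
TPM4: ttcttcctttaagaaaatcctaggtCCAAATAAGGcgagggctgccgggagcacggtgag
FLNA: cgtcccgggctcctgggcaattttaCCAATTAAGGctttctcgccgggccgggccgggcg
ACTN1: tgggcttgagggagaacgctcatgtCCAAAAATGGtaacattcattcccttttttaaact

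The box began 94 bases before the start in MYLK, ACTG1 and FLNA, 89 bases in CNN2, 173 bases in TPM4 and 171 bases in ACTN1. For MYLK this start lies inside the gene (chr3:123610049-123884332, minus strand), near its 3′ end. Gene counts do not separate a transcript that begins there from the rest of MYLK. The promoter of SRF held 2 boxes, 30 and 10 bases before its start. Of the 37 genes, 30 had a promoter entry, and 9 of these (30.0%) held a CArG box, the other two being ACTC1 and ACTG2, which had too few counts to be tested. The box was present in 9 of the 57 windows of these genes (15.8%), against 454 of all 35116 windows (1.29%). Of the 9 genes, 6 rose in sh1, 1 (ACTN1) did not pass the test and 2 were not tested. Over all tested members 56.7% were higher in sh1, and over all genes tested 12.8%. A link between the box and the rise was not tested. A match describes these letters only, and the 7 genes with no entry were TAGLN, MYL9, MYH11, DES, TNNC1, ACTB and MYOCD.

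The total gene count ranged from 11239638 to 16346022 in sh1 (median 15451506) and from 15328312 to 19992974 in shNC (median 17555418). The lowest of these was sh1 replicate 3, which stands apart from the other sh1 libraries (14689309 to 16346022). RUNX2 itself was at 3.01 ± 0.233 FPKM in sh1 and at 4.82 ± 0.567 FPKM in shNC (n = 6 each, ± SD). Its log2 fold change was -0.69 (SE 0.08, adjusted p = 4.61e-06, edgeR's quasi-likelihood test), with no overlap between the groups. Adjusted p-values below are from the same test unless stated, and fold changes are sh1 over shNC. MDM2 and CDK4, both known to be amplified in this cell line, were abundant in both groups (84.9 ± 8.49 FPKM in sh1 and 68.1 ± 6.37 FPKM in shNC for MDM2, 42.1 ± 4.75 FPKM in sh1 and 42.9 ± 3.54 FPKM in shNC for CDK4). MDM2 was called higher in sh1 (log2 fold change 0.30, SE 0.07, adjusted p = 0.00416), with overlap between the groups, and CDK4 was not called (adjusted p = 0.705). Of the osteoblast markers, ALPL had 1 count over all sh1 libraries and 3 over all shNC libraries, and COL1A1 was at 1.66 ± 0.407 FPKM in sh1 and 0.590 ± 0.190 FPKM in shNC, so ALPL was close to absent. COL1A1 was higher in sh1 (log2 fold change 1.49, SE 0.19, adjusted p = 2.32e-05), as was SPARC, an abundant bone matrix gene, at 474.5 ± 41.5 FPKM in sh1 and 296.9 ± 20.2 FPKM in shNC (0.66, SE 0.06, adjusted p = 5.58e-07). SPP1, osteopontin, was at 2.46 ± 0.598 FPKM in sh1 and 2.77 ± 0.374 FPKM in shNC and was not called (adjusted p = 0.297). Endothelial markers summed to 0.599 to 0.994 FPKM in sh1 and 0.649 to 1.10 FPKM in shNC, and blood cell markers to at most 0.244 FPKM in sh1 and 0.221 FPKM in shNC.

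Of the 37 genes, 30 had enough counts to be tested. In sh1, 17 of the 30 were higher, 3 were lower and 10 were not called at an adjusted p under 0.05. Over all 16489 genes tested, 12.8% were higher and 13.3% were lower. The groups did not overlap for 12 of the 30 genes, all higher in sh1, where 5.84% of all genes tested were higher with no overlap and 6.08% lower with no overlap. At least 2-fold higher were 3 genes (TNNT2, TAGLN and MYL9), against 1.2% of all genes tested. The median log2 fold change of the 30 genes was 0.20, against -0.0035 for all genes tested. TNNT2 passed the filter on low counts only through its sh1 libraries. Without it, 16 of 29 genes were higher and 3 lower, 11 were higher with no overlap, 2 were at least 2-fold higher, and the median was 0.19. Without sh1 replicate 3, the counts were 17 higher and 2 lower. These are bulk libraries, in which more cells of a kind and more RNA per cell cannot be told apart.

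**Figure D1:**
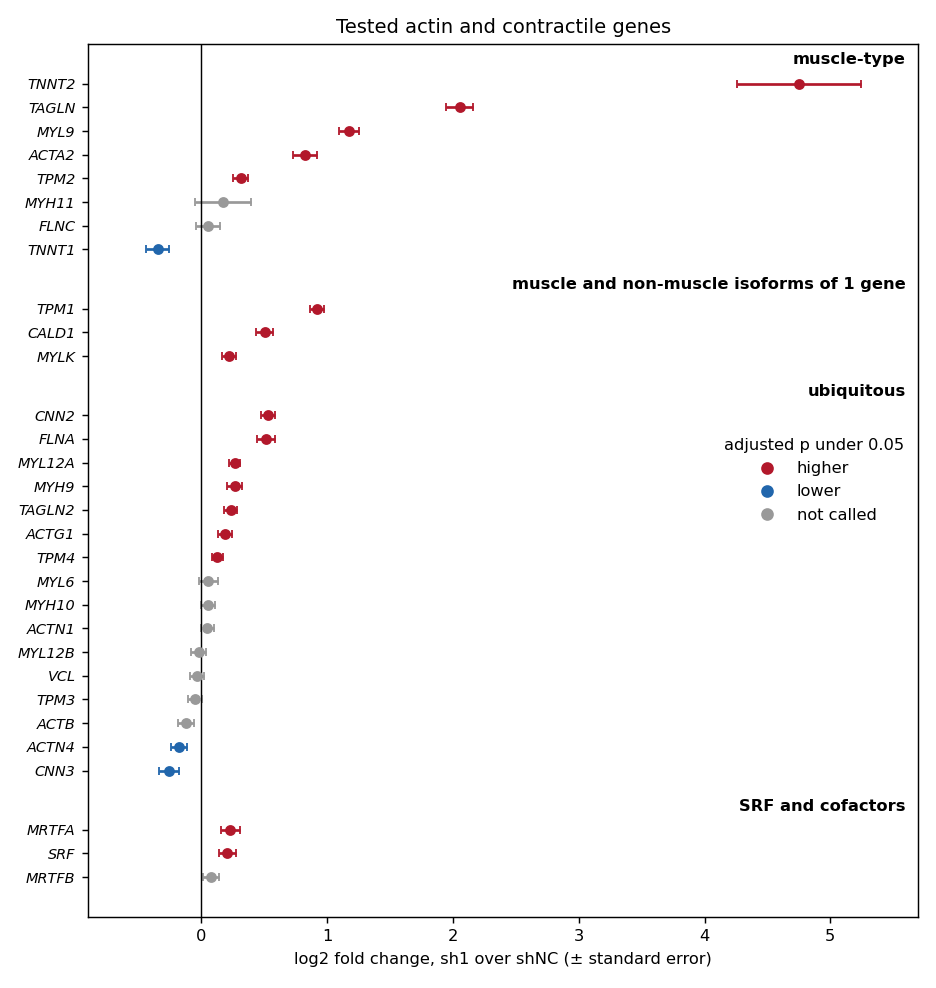
Log2 fold change, sh1 over shNC, of the 30 tested genes, one row per gene under its class, with bars of 1 standard error and colour by the call at an adjusted p under 0.05. TNNT2 (4.75), TAGLN (2.05) and MYL9 (1.18) lie farthest to the right, and the lowest is TNNT1 (-0.35).

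Counts were then taken by class. Of the 8 tested muscle-type genes, 5 were higher and 1 was lower, with a median log2 fold change of 0.57. Without TNNT2, 4 of 7 were higher and 1 was lower, with a median of 0.31. The 3 genes with muscle and non-muscle isoforms were all higher, with a median of 0.50. Of the 16 ubiquitous genes, 7 were higher, 2 were lower and 7 were not called, with a median of 0.05. Of the 3 tested regulators, 2 were higher. The medians of the classes were not tested against each other.

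TAGLN (transgelin or SM22, an actin-binding protein used as an early smooth muscle marker; chr11:117199370-117207464, plus strand, GRCh38) had the largest fold change of the tested members other than TNNT2. Its level on the CPM scale (counts per 1000000 after TMM scaling) was 16.5 at the lowest, 18.1 at the median and 20.8 at the highest of the 6 sh1 libraries, against 3.54, 4.38 and 5.79 in shNC. All sh1 libraries thus lay far above all shNC libraries. The log2 fold change was 2.05 (SE 0.11, adjusted p = 9.74e-10). TAGLN is still a low gene per length in these cells, at 4.78 ± 0.415 FPKM in sh1 and 1.14 ± 0.198 FPKM in shNC (SD, n = 6 each). Its last exon is shared over 2498 bases with an unnamed gene on the same strand (ENSG00000280143, 4 to 12 counts in sh1 libraries and 2 to 8 in shNC libraries), and 64.6% of the 150-base windows of its main transcript are also held by that gene. How reads in the shared stretch were assigned is not given in the sources used here, so the level of TAGLN per length is uncertain.

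MYL9, the regulatory light chain of smooth muscle myosin II (chr20:36541497-36551447, plus strand), had 33.2, 38.90 and 43.1 CPM at the lowest, median and highest in sh1, against 14.8, 17.2 and 19.3 CPM in shNC. The groups were far apart. The log2 fold change was 1.18 (SE 0.08, adjusted p = 1.64e-08). ACTA2, smooth muscle alpha-actin (chr10:88935074-88991339, minus strand), had 9.94, 10.6 and 12.2 CPM in sh1, against 5.37, 5.99 and 7.16 CPM in shNC. Again no shNC library reached the lowest sh1 library, and the log2 fold change was 0.83 (SE 0.09, adjusted p = 6.68e-06). The libraries do not mark strand, and on the opposite strand ACTA2 overlaps STAMBPL1 and FAS, TAGLN overlaps PCSK7 and MYL9 overlaps DLGAP4-AS1. None of these 4 neighbours was called higher (log2 fold changes of -0.20, 0.11, 0.02 and -0.43, in that order). In all, 12 tested members overlap another tested gene on the opposite strand, the rest being MYH11, MYLK, TPM1, ACTN4, MYL6, MYH10, TPM4, VCL and MRTFA.

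TPM2, beta-tropomyosin, which lies along actin filaments of muscle and fibroblasts (chr9:35681992-35690056, minus strand), had 150.3, 176 and 186 CPM in sh1, against 127, 137 and 161 CPM in shNC. The groups overlapped, and the log2 fold change was 0.31 (SE 0.06, adjusted p = 0.00123). FLNC, the muscle filamin, had 82.6, 87.4 and 115 CPM in sh1, against 72.7, 89.9 and 109 CPM in shNC (log2 fold change 0.06, SE 0.10, adjusted p = 0.702). MYH11, the heavy chain of smooth muscle myosin and a marker of mature smooth muscle, was low, with 1.50, 1.65 and 2.47 CPM in sh1, against 0.880, 1.67 and 2.20 CPM in shNC (log2 fold change 0.17, SE 0.22, adjusted p = 0.606). The groups of MYH11 overlapped.

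**Figure D2:**
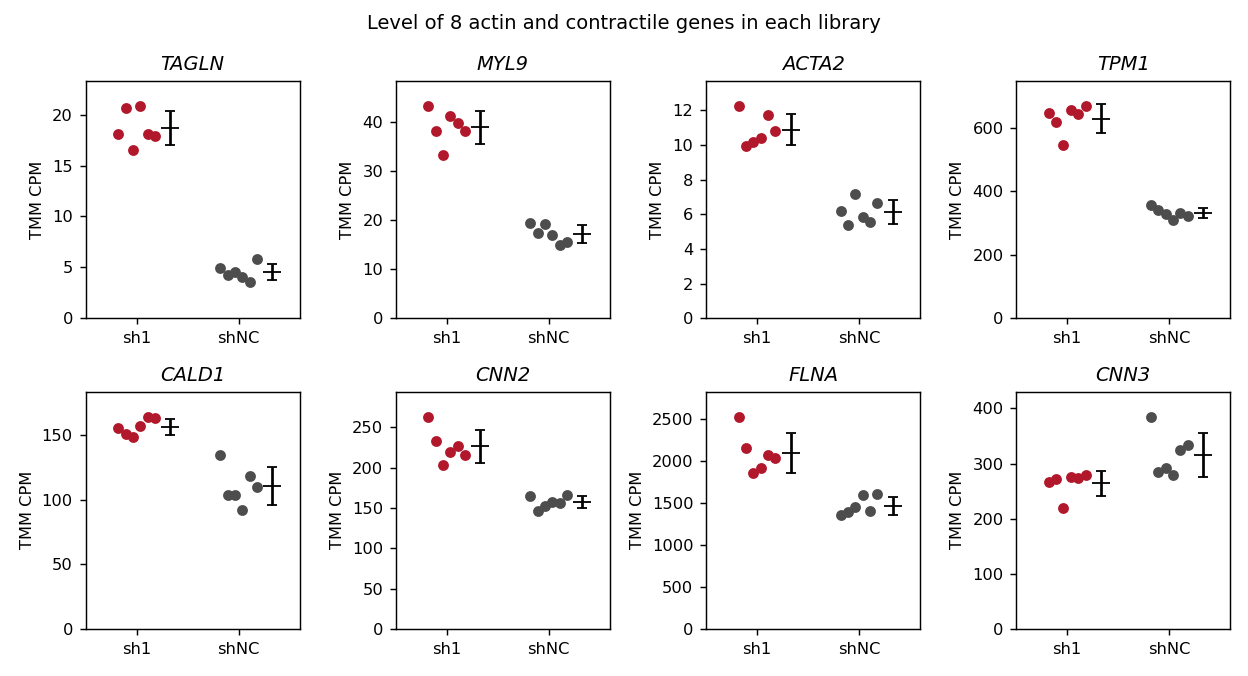
Level in CPM after TMM scaling of 8 genes in each sh1 library (left, red) and each shNC library (right, grey), with the mean and SD of each group beside the points and axes that start at 0. The groups do not overlap for TAGLN, MYL9, ACTA2, TPM1, CALD1, CNN2 and FLNA, while for CNN3 the sh1 libraries reach up to 278 CPM, the level of the lowest shNC library.

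Of the other smooth muscle markers, SMTN, smoothelin, was at 5.79 ± 1.19 FPKM in sh1 and 6.92 ± 0.952 FPKM in shNC and was not called (log2 fold change -0.27, SE 0.11, adjusted p = 0.0772). The 4 members that follow had few counts. CNN1, smooth muscle calponin, had 40 counts over the 6 sh1 libraries and 29 over the 6 shNC libraries. LMOD1, the smooth muscle leiomodin that starts actin filaments, had 53 in sh1 and 11 in shNC. ACTG2, the gamma-actin of gut smooth muscle, had 3 in sh1 and 0 in shNC, and MYOCD, the SRF cofactor of smooth muscle and heart, had 7 in sh1 and 2 in shNC. None of these 4 genes passed the filter on low counts. Of the 12 markers of smooth muscle and pericytes, 10 were under 1 FPKM in every library, and their summed level was 39.4 to 46.2 FPKM in sh1 and 33.6 to 41.6 FPKM in shNC. Of the 7 tested markers, 3 were higher, NOTCH3 (log2 fold change 2.41, SE 0.28, adjusted p = 7.02e-06, 242 counts in sh1 and 52 in shNC, and over the floor of the filter in 6 sh1 and 2 shNC libraries, so that it passed only through sh1), CSPG4 (1.76, SE 0.19, adjusted p = 3.16e-06) and MCAM (0.16, SE 0.06, adjusted p = 0.0457). Their part in the rise of TAGLN, MYL9 and ACTA2 was not tested.

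The troponins, which make muscle contraction depend on calcium, went in different directions. TNNT2, cardiac troponin T (chr1:201359008-201377764, minus strand), had 1.83, 6.11 and 7.69 CPM in sh1, against 0, 0.0612 and 0.660 CPM in shNC. Summed over the libraries these were 504 counts in sh1 and 21 in shNC. The log2 fold change was 4.75 (SE 0.50, adjusted p = 2.31e-06), and every sh1 library was above every shNC library. The value rests on very low shNC counts, and was 4.47 to 5.54 when each library was left out in turn, the highest without shNC replicate 5. Of the 150-base windows of its main transcript, 68.6% are also held by an unnamed gene, ENSG00000286600, that is not a row of the count table. TNNT1, slow skeletal troponin T (chr19:55132698-55149206, minus strand), fell, with 14.7, 16.5 and 17.8 CPM in sh1, against 17.3, 20.4 and 24.7 CPM in shNC (log2 fold change -0.35, SE 0.09, adjusted p = 0.00946). The groups overlapped for TNNT1.

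The members DES, TNNC1 and ACTC1 had too few counts for the test and are given by their counts. DES, desmin, the intermediate filament of muscle, had 116 counts in sh1 (8 to 35 a library) and 17 in shNC (0 to 5 a library). TNNC1, the troponin C of slow and heart muscle, had 31 in sh1 (4 to 8 a library) and 10 in shNC (0 to 3 a library). Neither gene overlapped between the groups. ACTC1, cardiac alpha-actin, had 63 in sh1 (4 to 17 a library) and 16 in shNC (1 to 5 a library), which overlapped. With no filter on low counts, DES, LMOD1, ACTC1 and TNNC1 passed the test (adjusted p of 2.07e-07, 0.000578, 0.000281 and 0.0201), while CNN1, ACTG2 and MYOCD did not.

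Beside TNNT2 stood 2 heart myosin heavy chains from the list of other contractile genes, which were looked at by library after their values had been seen. MYH6, the alpha heavy chain of heart muscle, had 2, 6, 154, 172, 213 and 42 counts in sh1 replicates 1 to 6, against 1, 1, 0, 0, 0 and 1 counts in shNC replicates 1 to 6. MYH7, the beta heavy chain, had 124, 183, 12, 25, 9 and 1 counts in sh1 replicates 1 to 6, against 0, 0, 0, 0, 23 and 15 counts in shNC replicates 1 to 6. TNNT2 had 76, 118, 87, 109, 87 and 27 counts in sh1, against 1, 0, 0, 1, 11 and 8 in shNC. The sh1 libraries thus differed among themselves, with MYH7 high in replicates 1 and 2 and MYH6 high in replicates 3, 4 and 5, while TNNT2 was present in all 6. The 2 shNC libraries with the most TNNT2, replicates 5 and 6, were also those with MYH7. MYH6 and MYH7 share 4.25% and 4.19% of their 150-base windows with each other.

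**Figure D3:**
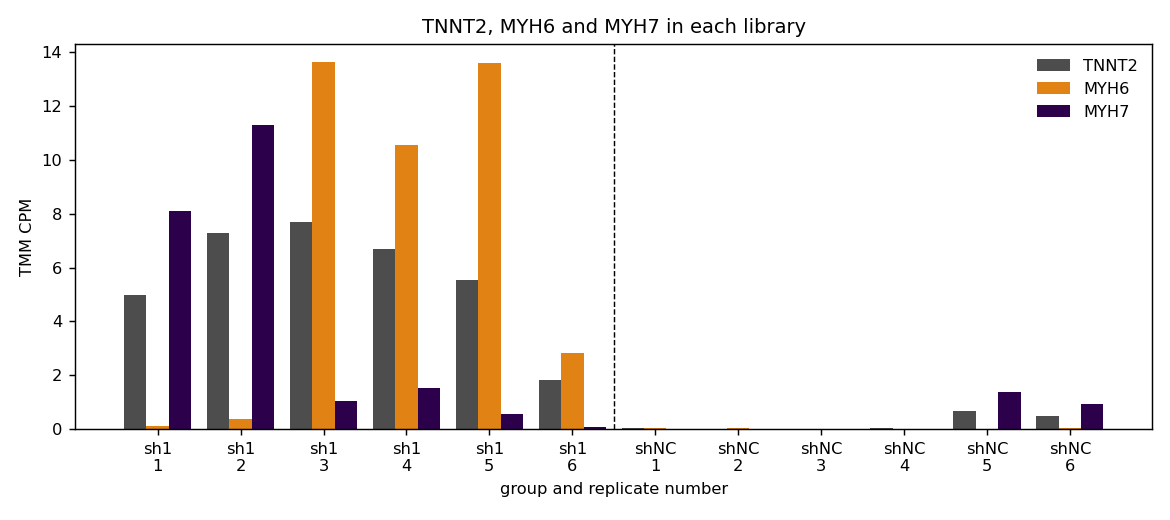
Level in CPM after TMM scaling of TNNT2, MYH6 and MYH7 in each of the 6 sh1 libraries (left of the dashed line) and the 6 shNC libraries (right of it), as bars from 0. MYH7 reaches 8.10 and 11.3 CPM in sh1 replicates 1 and 2, MYH6 reaches 13.6, 10.5 and 13.6 CPM in sh1 replicates 3, 4 and 5, and no bar in shNC passes 1.38 CPM.

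Of the cardiac muscle markers, 7 of 12 were under 1 FPKM in every library, and their summed level was 3.65 to 6.31 FPKM in sh1 and 2.42 to 3.40 FPKM in shNC. The 3 tested ones went in different directions. MYH7 was called higher (log2 fold change 3.36, SE 0.95, adjusted p = 0.0145), with overlap between the groups. It was over the floor of the filter in 4 sh1 and 2 shNC libraries, so it needed its sh1 libraries to pass. NKX2-5, a transcription factor of heart muscle, was not called (-0.04, SE 0.23, adjusted p = 0.925), and RYR2, the calcium release channel of heart muscle, fell (-0.26, SE 0.07, adjusted p = 0.00795). Among those that did not pass the filter on low counts, MYH6 had 589 counts in sh1, spread unevenly over its libraries, and 3 in shNC, with no overlap. MYBPC3, a myosin-binding protein, had 30 counts in sh1 and 2 in shNC, NPPA, the atrial peptide, 47 in sh1 and 11 in shNC, and TNNI3, cardiac troponin I, 24 in sh1 and 7 in shNC. NPPB had 10 in sh1 and 3 in shNC, and TBX5 had 12 in sh1 and 0 in shNC. PLN, phospholamban, had 22 in sh1 and 23 in shNC. GATA4, a transcription factor of heart muscle, had fewer counts in sh1, 25 against 44 in shNC, as did TBX20, with 2 in sh1 and 5 in shNC. Skeletal muscle markers summed to 2.83 to 3.85 FPKM in sh1 and 2.40 to 3.40 FPKM in shNC. MYF5, MYF6, PAX7 and TNNI2 were at 0 in every library, and MYOD1 and MYOG had 1 count each in sh1 and 0 in shNC, which allows up to 3 counts. CKM, muscle creatine kinase, had 22 counts in sh1 (1 to 6 a library) and 2 in shNC (0 to 1 a library), so its groups met at 1 count. TNNI1, slow troponin I, had 9 in sh1 (1 to 2 a library) and 0 in shNC. ACTA1, skeletal alpha-actin, had 36 in sh1 and 7 in shNC with overlap, and MYH2 and MYH3, the 2 tested markers, were not called. The part of these markers in the rise of TNNT2 was not tested.

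The 3 genes that give muscle and non-muscle isoforms all rose, and gene counts do not tell their isoforms apart. TPM1, alpha-tropomyosin (chr15:63042620-63071915, plus strand), had 544, 645 and 667 CPM in sh1, against 309, 329 and 358 CPM in shNC. The groups were well separated, with a log2 fold change of 0.92 (SE 0.05, adjusted p = 3.53e-09). Its antisense gene TPM1-AS moved alike (0.79, adjusted p = 9.37e-05). The 2 genes overlap over 3354 bases, and reads in that stretch cannot be told apart without strand. CALD1, caldesmon, which damps myosin on actin filaments (chr7:134744252-134970729, plus strand), had 149, 157 and 164 CPM in sh1, against 92.2, 107 and 135 CPM in shNC (log2 fold change 0.50, SE 0.07, adjusted p = 4.76e-05), with no overlap. MYLK, myosin light chain kinase (chr3:123610049-123884332, minus strand), had 527, 604 and 676 CPM in sh1, against 486, 509 and 578 CPM in shNC. The groups overlapped, and its log2 fold change was 0.22 (SE 0.06, adjusted p = 0.00998).

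Among the ubiquitous genes, CNN2 and FLNA rose the most. CNN2, the calponin of non-muscle cells, had 203, 223 and 262 CPM in sh1, against 146, 157 and 166 CPM in shNC (log2 fold change 0.53, SE 0.06, adjusted p = 4.28e-06). FLNA, filamin A, which cross-links actin filaments and ties them to the membrane, had 1855, 2058 and 2525 CPM in sh1, against 1354, 1430 and 1604 CPM in shNC (0.51, SE 0.07, adjusted p = 2.92e-05). Neither gene overlapped between the groups. MYH9, the main non-muscle myosin II heavy chain, had 1394, 1521 and 1781 CPM in sh1, against 1185, 1273 and 1363 CPM in shNC (0.26, SE 0.06, adjusted p = 0.00262), and MYL12A, its regulatory light chain, had 93.4, 97.2 and 99.1 CPM in sh1, against 77.7, 80.1 and 84.5 CPM in shNC (0.27, SE 0.04, adjusted p = 0.000182). TAGLN2, the transgelin of non-muscle cells, had 399, 451 and 462 CPM in sh1, against 331, 379 and 394 CPM in shNC (0.23, SE 0.05, adjusted p = 0.00325). MYH9, MYL12A and TAGLN2 also did not overlap, with changes of 1.20, 1.20 and 1.18-fold.

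The cytoplasmic actins are the most abundant genes of the set. ACTG1, gamma-actin, had 2598, 2821 and 3094 CPM in sh1, against 2292, 2516 and 2746 CPM in shNC (log2 fold change 0.19, SE 0.06, adjusted p = 0.0173). Its call was lost in limma fits of log2 FPKM (highest adjusted p 0.0652) and in the edgeR fit with the replicate number as a block (adjusted p = 0.0551). ACTB, beta-actin, had 2229, 2428 and 2736 CPM in sh1, against 2397, 2677 and 2990 CPM in shNC (-0.12, SE 0.07, adjusted p = 0.194). Both genes overlapped between the groups, and ACTB was not called. TPM4, a non-muscle tropomyosin, had 605, 623 and 662 CPM in sh1, against 544, 575 and 596 CPM in shNC (0.13, SE 0.04, adjusted p = 0.0366). The call of TPM4 was lost without sh1 replicate 5 or shNC replicate 6, and its adjusted p was at most 0.0772 with any library left out. In all, it was lost in 4 of 21 alternatives, among them the edgeR fit with the replicate block (adjusted p = 0.109).

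Both genes that fell among the ubiquitous ones overlapped between the groups. CNN3, a calponin found in many tissues, had 219, 273 and 278 CPM in sh1, against 278, 308 and 384 CPM in shNC (log2 fold change -0.26, SE 0.08, adjusted p = 0.0194). ACTN4, a non-muscle alpha-actinin that bundles actin, had 535, 571 and 689 CPM in sh1, against 599.9, 664 and 744 CPM in shNC (-0.18, SE 0.06, adjusted p = 0.0482). The call of ACTN4 was lost in 10 of the 12 fits that left out a library, with an adjusted p of 0.0121 to 0.131. It was also lost in the edgeR fit with the replicate block (adjusted p = 0.0779). The other 7 ubiquitous genes were not called. VCL, vinculin, which anchors actin at adhesions, had 465, 509 and 536.5 CPM in sh1, against 481, 509 and 593 CPM in shNC. TPM3, ACTN1, MYL12B, MYL6 and MYH10 had log2 fold changes of -0.05, 0.05, -0.02, 0.06 and 0.05, with adjusted p of 0.534 to 0.830. Over the 19 members above 100 CPM, the coefficient of variation within a group ranged from 3.15% to 13.2%. MYL6 shares 1302 bases on the same strand with MYL6B (log2 fold change -0.29, adjusted p = 0.00827).

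A ratio of 2 genes within a library does not depend on how libraries are scaled, so each muscle-type gene was also set against its ubiquitous relative, with counts divided by gene length. This is the gene length implied by the deposited counts and FPKM, not that of 1 transcript (3245 against 958 bases of main transcript for MYL12A, 2821 against 2786 for MYL9). The number of one gene per the other depends on it, while the change of a ratio between the groups does not. For 6 ratios both genes were tested, and 5 of the 6 differed between the groups in a two-sided exact permutation test over libraries with Benjamini-Hochberg adjustment over the 6. The smallest p that 6 libraries against 6 allow is 0.00216. TAGLN over TAGLN2 was 3.54-fold higher in sh1 (log2 difference 1.82, adjusted p = 0.00325), so that there were 36.99 TAGLN2 per TAGLN in sh1 and 130.8 in shNC. ACTA2 over ACTB was 1.93-fold higher (log2 difference 0.95, exact permutation adjusted p = 0.00325), with 191 ACTB per ACTA2 in sh1 and 368 in shNC. MYL9 over MYL12A was 1.88-fold higher (log2 difference 0.91, exact permutation adjusted p = 0.00325), with 2.17 MYL12A per MYL9 in sh1 and 4.07 in shNC. Every sh1 library was above every shNC library in these 3 ratios.

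FLNC over FLNA went the other way. The log2 ratio ranged from -4.41 to -4.16 in sh1 and from -4.07 to -3.69 in shNC, a log2 difference of -0.45 (exact permutation adjusted p = 0.00325). FLNA rose and FLNC was not called, so FLNC was 0.730 times as abundant per FLNA in sh1 as in shNC. TPM2 over TPM4 was only 1.14-fold higher, with overlap between the groups (log2 difference 0.18, exact permutation p = 0.0390, adjusted p = 0.0468), and this call was lost in 9 of the 12 sets that left out a library, with an adjusted p of 0.00779 to 0.101. MYH11 over MYH9 did not differ beyond its spread (log2 difference -0.02, exact permutation adjusted p = 0.935).

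**Figure D4:**
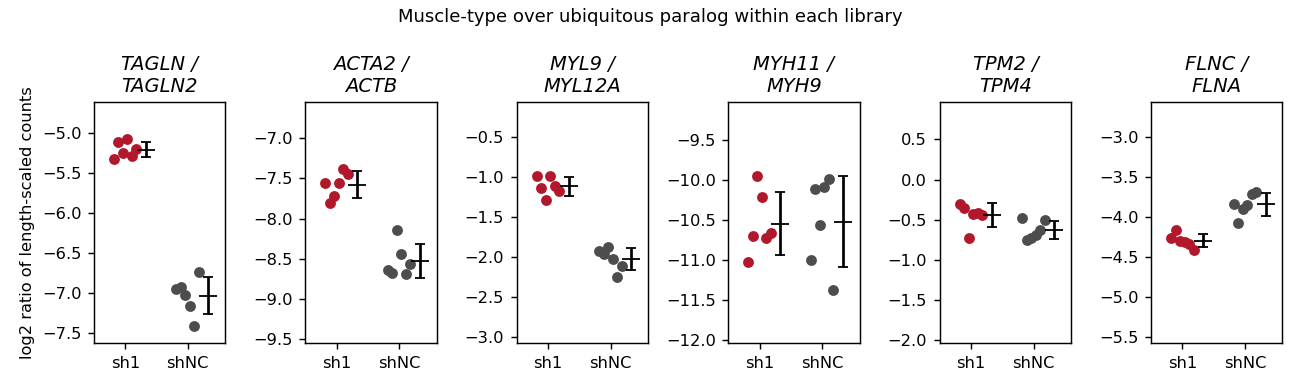
Log2 ratio of length-scaled counts of a muscle-type gene over its ubiquitous relative in each sh1 library (left, red) and each shNC library (right, grey), 1 panel per pair, each panel spanning 3 log2 units around its own mean, with the mean and SD of each group. TAGLN over TAGLN2 shows the widest gap (1.82), MYH11 over MYH9 shows none (-0.02) and FLNC over FLNA is lower in sh1 (-0.45).

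The make-up of each family was described as each gene's share of the family's summed FPKM, which divides by the gene length used for the ratios above. That length can be far above that of the main transcript, at 12876 against 1217 bases for TPM1 but 8389 against 7064 bases for TPM3. The size and ranking of the shares within a family depend on it, while both groups used the same lengths. Among the actins, ACTG1 held 57.4% ± 0.509 in sh1 and 52.2% ± 1.32 in shNC, and ACTB held 42.3% ± 0.520 in sh1 and 47.7% ± 1.33 in shNC (SD, n = 6 each). Neither share overlapped between the groups. ACTA2 held 0.222% in sh1 and 0.130% in shNC, so that the muscle-type actin remained a trace beside the cytoplasmic ones. Summed over all tropomyosins, the level was 239.9 ± 4.10 FPKM in sh1 and 200.0 ± 7.71 FPKM in shNC. TPM1 held 20.4% ± 1.25 of it in sh1 and 12.8% ± 0.333 in shNC, while TPM3 held 27.0% ± 1.24 in sh1 and 33.1% ± 0.934 in shNC. The shares of TPM2 (22.3% in sh1 and 21.3% in shNC) and TPM4 (30.3% in sh1 and 32.9% in shNC) overlapped.

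In the other families, MYL9 held 8.88% ± 0.798 of the regulatory light chains in sh1 and 4.25% ± 0.501 in shNC, and MYL12B, the main one, held 71.9% ± 1.34 in sh1 and 78.5% ± 1.37 in shNC. The calponins summed to 155.8 ± 11.3 FPKM in sh1 and 153.1 ± 13.1 FPKM in shNC, with CNN2 at 40.0% ± 2.21 in sh1 and 28.0% ± 1.83 in shNC and CNN3 at 59.9% ± 2.21 in sh1 and 71.9% ± 1.85 in shNC. Filamins summed to 275.6 ± 27.4 FPKM in sh1 and 202.0 ± 19.4 FPKM in shNC, of which FLNC held 3.67% ± 0.234 in sh1 and 4.77% ± 0.449 in shNC. MYH9 held 93.1% of the non-muscle and smooth muscle myosin II heavy chains in sh1 and 92.2% in shNC, and MYH11 held 0.0630% in sh1 and 0.0653% in shNC, and every share of this family overlapped between the groups. Within the transgelins, TAGLN2 held about the same share in both groups (95.2% in sh1 and 95.0% in shNC), while TAGLN held 2.57% in sh1 and 0.729% in shNC and TAGLN3 held 2.26% in sh1 and 4.23% in shNC.

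Of the regulators, SRF and MRTFA rose a little. SRF had 56.6, 63.5 and 73.5 CPM in sh1, against 51.7, 57.2 and 58.6 CPM in shNC (log2 fold change 0.21, SE 0.07, adjusted p = 0.0256). MRTFA had 30.8, 34.3 and 40.7 CPM in sh1, against 26.5, 30.3 and 33.2 CPM in shNC (0.23, SE 0.07, adjusted p = 0.0293). Both genes overlapped between the groups, and their calls were lost when single libraries were left out (SRF without sh1 replicate 2 or shNC replicate 1, highest adjusted p 0.0536; MRTFA without sh1 replicate 1 or 4 or shNC replicate 1 or 5, highest adjusted p 0.0621). The calls of SRF and MRTFA were also lost in the edgeR fit with the replicate block (adjusted p = 0.0687 and 0.0686). MRTFB was not called, with 32.6, 37.5 and 41.0 CPM in sh1, against 32.3, 35.6 and 37.1 CPM in shNC (0.07, SE 0.06, adjusted p = 0.424). An mRNA level does not measure the amount or place of the protein.

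Other genes of the pathway were described from lists. Of 8 further SRF partners, 7 were tested, and 3 were higher (42.9%, against 12.8% of all genes tested) and 1 lower (14.3%, against 13.3%). The median log2 fold change of the 7 was -0.06. FHL3, a LIM protein (0.45, SE 0.09, adjusted p = 0.00152), ELK4, an ETS factor that joins SRF on DNA (0.29, SE 0.06, adjusted p = 0.00297), and FHL1 (0.15, SE 0.05, adjusted p = 0.0353) were higher, and FHL2, a LIM protein (-0.15, SE 0.05, adjusted p = 0.0321), was lower. The call of FHL2 was lost without any 1 of sh1 replicates 4, 5 and 6 and shNC replicates 4, 5 and 6, which leaves 0 lower.

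Of 40 genes of actin filament assembly, 39 were tested, 7 were higher and 5 were lower, with a median log2 fold change of 0.01. These are 17.9% higher and 12.8% lower, near the 12.8% and 13.3% of all genes tested, and the number lower was 3 without any 1 of sh1 replicates 3 to 6 and shNC replicates 2 to 4. ENAH, which extends filaments (0.61, SE 0.06, adjusted p = 2.31e-06), CAP2, which recycles actin (0.48, SE 0.07, adjusted p = 9.15e-05), and WASF1, an activator of branching (0.37, SE 0.06, adjusted p = 0.000202), were higher, and ARPC1A, a subunit of the branching complex (-0.53, SE 0.06, adjusted p = 1.2e-05), was lower. The groups did not overlap for any of these 4 genes. Of 29 genes of the focal adhesion plaque, where filaments meet integrins, 27 were tested, and 10 were higher (37%, against 12.8% of all genes tested) and 4 lower (14.8%, against 13.3%), with a median of 0.14. The number lower was 2 without any 1 of sh1 or shNC replicates 2, 4, 5 and 6. Among them, PALLD, which bundles actin at adhesions (0.56, SE 0.05, adjusted p = 5.76e-07), the tensins TNS1 (0.81, SE 0.08, adjusted p = 1.47e-06) and TNS3 (0.63, SE 0.06, adjusted p = 1.47e-06) and the kinase PTK2 (0.34, SE 0.05, adjusted p = 6.16e-05) had the smallest p-values, and all 4 were higher with no overlap.

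Of 41 further paralogs of the contractile genes, 20 were tested, 6 were higher (30.0%, against 12.8% of all genes tested) and 3 were lower (15.0%, against 13.3%), with a median log2 fold change of 0.02. The number higher depends on the filter on low counts, with 13 without one and 3 where every library needed 10 counts. TTN, titin (0.46, SE 0.06, adjusted p = 3.91e-05), ACTN2, the sarcomeric alpha-actinin (1.17, SE 0.21, adjusted p = 0.000521), and MYLK2, the skeletal muscle kinase (1.36, SE 0.28, adjusted p = 0.00169), were higher, and TAGLN3, a transgelin of nerve cells (-0.67, SE 0.14, adjusted p = 0.00195), was lower. ACTN2 had 1.42 to 2.78 CPM in sh1 and 0.601 to 1.21 CPM in shNC, and MYLK2 had 0.972 to 2.39 CPM in sh1 and 0.240 to 0.864 CPM in shNC, so both are low genes whose groups did not overlap. MYLK2 passed the filter only through its sh1 libraries (over the floor in 6 sh1 and 2 shNC libraries). MYH7 (4 sh1 and 2 shNC libraries) and LMOD3 (5 sh1 and 2 shNC libraries), also among the 6 higher, needed their sh1 libraries to pass.

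Besides the CArG box, the promoter windows were searched on both strands for 2 other motifs. The RUNX motif cannot overlap a CArG box, and the TEAD motif can do so only in its outer GG or CC. The RUNX motif, TGTGGT or ACCACA, was found in 10 of the 57 windows of these genes (17.5%), against 13.1% of all windows. The 9 genes that held it were TNNT2, CALD1, TAGLN2, MYL12A and MRTFA, which rose, CNN3 and ACTN4, which fell, and MYH10 and MRTFB, which were not called. The TEAD motif, GGAATG or CATTCC, was found in 15 of the 57 windows (26.3%), against 14.0% of all windows. Of the 14 genes with it, 6 rose, 1 fell, 5 were not called and 2 were not tested. A match is a description of these letters and not evidence that a factor binds there.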

How the data were processed

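Polyadenylated RNA of 12 libraries (6 sh1, 6 shNC) was sequenced as pairs of 150-base reads with a kit that does not mark strand. The authors aligned the reads with HISAT2 to GRCh38 and counted them per gene with featureCounts, and the deposited tables give whole gene counts and FPKM (counts scaled by gene length and library total). The sources used here give no versions for these tools. Of 59248 rows, 58676 had an Ensembl identifier and 58207 of these had a name. The other 572 rows stayed in the library totals.

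The quasi-likelihood test of edgeR 4.0.16 (R 4.3.3) was run on the counts after filterByExpr and TMM, with group as the only term, over 16489 genes with Benjamini-Hochberg adjustment, with 0.05 as the limit for a call. SE was taken as the size of a log2 fold change over the root of its F statistic. Scripts were tested on simulated data. The common biological coefficient of variation was 0.106. For ratios of paralogs, 0.5 was added to each count. Genes named were all 37 members, and up to 4 genes with the smallest p of each pathway list, with other genes named after their values were seen where stated. Some results that this rule covers are not reported here. The members and lists were chosen with earlier results of these data known. Other settings tried were scaling by library totals, RLE or upper quartile, other filters, DESeq2 1.42.0, limma 3.58.1 on log2(FPKM + 1) and log2(FPKM + 0.1), 1 added to each count in a ratio, the replicate number as a block, and leaving out each library. Gene coordinates are those of GENCODE 44 on GRCh38. The promoter sequences are RefSeq entries.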

Additional observations from a re-analysis of the deposited data

Results flagged for a closer look

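In 62 checks (31 genes in each group of 6 libraries), 6 single libraries lay apart from the other 5 by Dixon's 95% limit on the gap as a share of the range, where chance flags about 1 in 20 checks, or 3.1. CNN3 was at 219 CPM in sh1 replicate 3, against 267 to 278 CPM in the other sh1 libraries, and this is the library with the lowest total. TPM3 was at 496 CPM in sh1 replicate 6, against 539 to 565 CPM in the other sh1 libraries. MYLK and VCL were high in the same library, shNC replicate 1, at 578 CPM for MYLK (486 to 520 CPM in the other shNC libraries) and at 593 CPM for VCL (481 to 522 CPM in the others). TAGLN2 was at 331 CPM in shNC replicate 2, against 372 to 394 CPM in the other shNC libraries. ACTN1 was at 534 CPM in shNC replicate 6, against 455 to 484 CPM in the other shNC libraries.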

How the results depend on the processing

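Of the 20 called members, 15 kept their call under every one of 21 alternatives that gave a value, and 5 (ACTG1, ACTN4, TPM4, SRF and MRTFA) lost it under some. No called member changed sign, while MYL12B, VCL and the MYH11 over MYH9 ratio, which were not called, did so with single libraries left out. The number of members higher in sh1 was 16 to 18 with each library left out, 13 to 21 over all alternatives, and the number lower was 2 or 3. The highest, 21, came from DESeq2. RUNX2 stayed between -0.72 and -0.63 with each library left out. Same-numbered libraries did not deviate together (correlations of -0.16 to 0.03, 0 pairs over 0.1). The counts thus do not show that the numbers pair the samples, but this cannot exclude it, and the labels do not say. With the replicate block, the log2 fold change of RUNX2 was -0.69, and 13 members were higher and 2 lower. The ratios were then tested by flipping the signs of the differences between same-numbered libraries, and 4 of 6 passed. All 4 had an adjusted p of 0.0469 in this sign-flip test, the lowest possible with 4 of 6 ratios at its smallest p. Without a filter, 20 members were higher, and so were 13 of the other contractile paralogs, against 6 with the filter and 3 where each library needed 10 counts. With the block, 6 focal adhesion genes were higher, against 10 without it. Genes lower in sh1 numbered 3 of actin assembly (5 with all libraries) without any 1 of sh1 replicates 3 to 6 and shNC replicates 2 to 4, and 2 of the focal adhesion plaque (4 with all libraries) without any 1 of sh1 or shNC replicates 2, 4, 5 and 6. The TPM2 over TPM4 ratio was lost in most sets with a library left out. TNNT2 fell to 0.77 on the log2(FPKM + 1) scale, which understates changes of low genes. For the 7 members with few counts, depth limits what can be said. The cause of these differences was not tested.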
